A study of Mus musculus with 108 samples.

Results

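The comparison described here is that of the wild-type (WT) cerebral cortex (CX) before and after birth, with 6 libraries from late embryos (E17.5, in embryonic days) set against 6 from postnatal day 7 (P7). The libraries were chosen by their labels alone, as WT, CX and one of these ages, and make up 12 of the 108 libraries of the series. Each was made from the cortex of a different mouse, so replicates were separate animals and no mouse was measured at both ages. The strain background is written C56Bl/6N in the labels. The mice carried no transgene or treatment and came from a line bred for a CRISPR frameshift insertion in Cul3, the scaffold of a ubiquitin ligase. The same change of age was also measured in cortex of Cul3+/- (HET) mice, 6 at each age, and in hippocampus (HIP) of the same WT mice. Sex is not given in the labels, and neither is the day on which tissue was taken or sequenced, so age and collection or sequencing run cannot be told apart. The paper reports equal numbers of males and females for each genotype and period, but the labels do not assign them to libraries.

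Around E17.5 the mouse cortex still holds dividing radial glia and intermediate progenitors, the cells that give rise to its projection neurons, while the last upper-layer neurons migrate to their places. In the first postnatal week neurogenesis has ended, axons and dendrites grow, synapses form, and astrocytes and oligodendrocyte precursors multiply. Myelin sheaths and the inhibitory effect of GABA come later or at about this time. Whole tissue was sequenced, so a lower value can stand for fewer cells of a type or for less of that RNA in each cell, and these cannot be told apart.

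Libraries held between 25782766 and 39881769 counts, and levels are counts scaled to TMM-normalized library sizes, as CPM. Pearson's r of log2 CPM, across genes, ran from 0.972 to 0.992 between E17.5 libraries, from 0.982 to 0.993 between P7 libraries and from 0.849 to 0.918 between the ages. The E17.5 libraries fell in 3 pairs by the start of the mouse name, which the labels do not explain: replicates 1 and 2 (S2), 3 and 4 (S3), and 5 and 6 (S4). Both S3 libraries had higher sums of proliferation and intermediate progenitor genes and lower sums of presynaptic genes than the other 4. At P7, replicate 1 held more Eomes, Tfap2c, Pax6, Dlx1 and Zic1 than the other 5, replicate 4 stood apart in 13 of the values examined, and replicate 5 held more Ttr. Results are therefore also given without E17.5 replicates 3 and 4, and without P7 replicates 1 and 4. Cortical markers were present at both ages: Emx1, a regulator of the dorsal forebrain, was at 22.1 CPM or more at E17.5 and at 17.7 CPM or more at P7 in each library. En1 and En2, which mark midbrain and hindbrain, reached at most 0.117 CPM. The sum of the 9 listed hindbrain genes, En1 and En2 included, was higher, at 9.535 to 73.22 CPM at E17.5 and 9.559 to 27.51 CPM at P7. Zic1 was the only member of that list high enough to be tested.

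Most of the transcriptome differed between the ages. Of 17641 genes tested, 6961 (39.5%) were higher and 7404 (42%) were lower at P7 at an adjusted p of 0.1, by edgeR's quasi-likelihood test with Benjamini-Hochberg adjustment over all genes tested, which is the source of every adjusted p for WT cortex. A change of at least 2-fold was found upward in 3735 genes (21.2%) and downward in 2631 (14.9%). The median log2 fold change over all genes tested was −0.03. The 2 age groups did not overlap in CPM for 10672 of the 14365 genes called. Of 14444 protein-coding genes tested 6128 rose and 5967 fell, whereas none of 52 small nucleolar RNA genes rose and 40 fell. Without E17.5 replicates 3 and 4, 7198 genes were higher and 7301 lower, and without P7 replicates 1 and 4 the counts were 7048 and 7468. With so large a share of genes called, the count of a gene group is to be read against these percentages, and its median against −0.03. The gene lists were chosen with earlier results of these data known, so such a reading describes the lists and tests nothing.

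**Figure D1:**
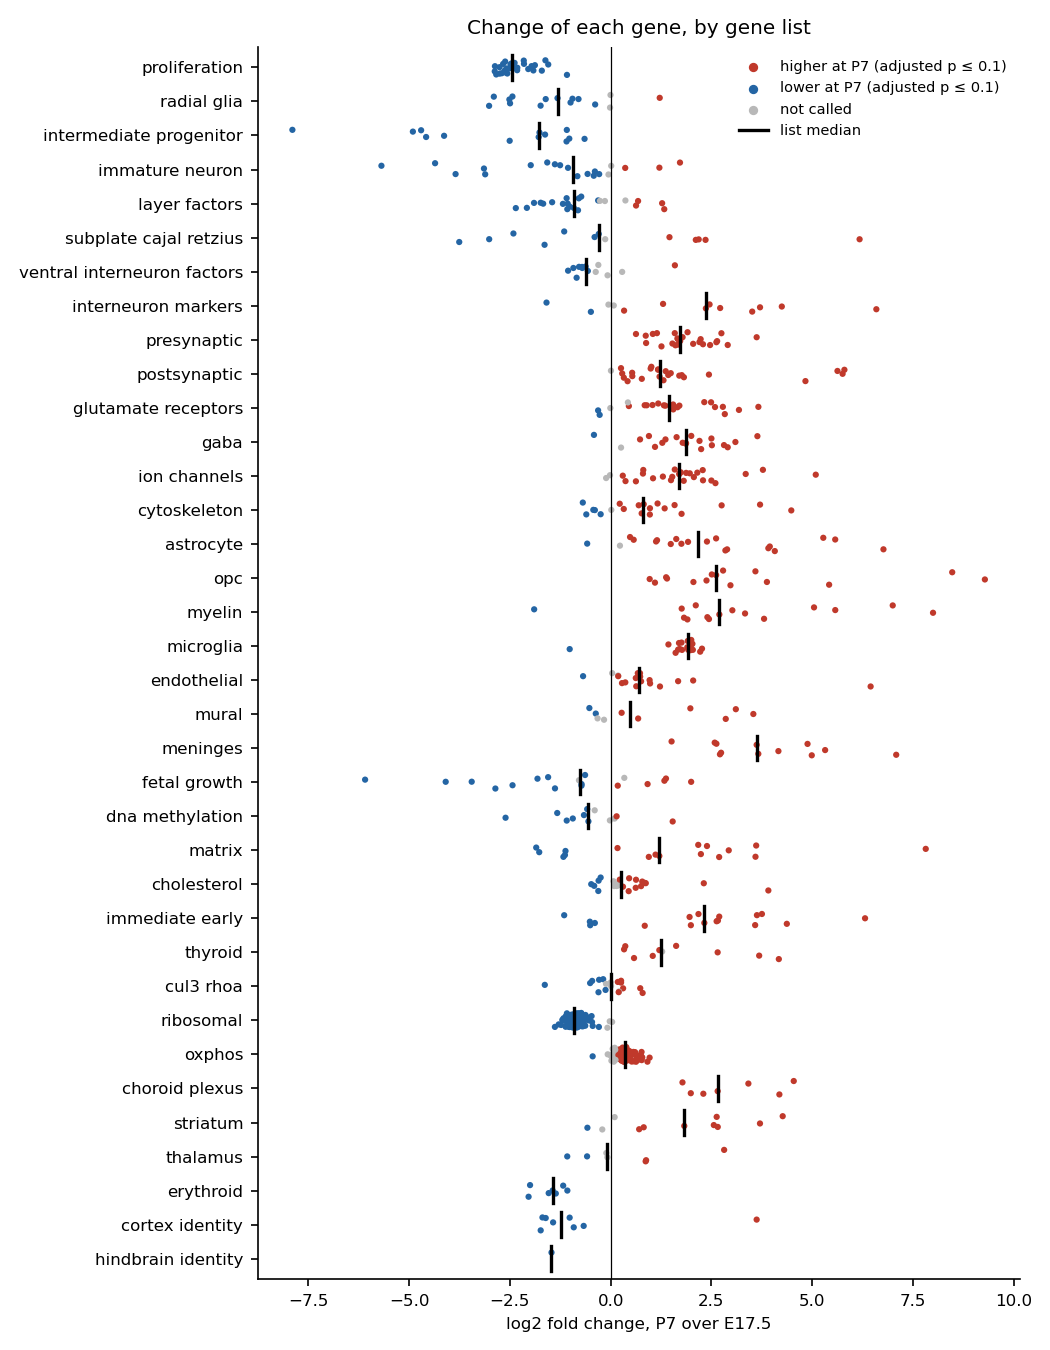
Log2 fold change of P7 over E17.5 (horizontal axis) of each tested member of 36 gene lists (vertical axis) in WT cortex, 6 libraries an age. Points are genes, red where higher and blue where lower at P7 at an adjusted p of 0.1 and grey where not called, and the black bar is the median of the list. All 30 proliferation genes lie to the left, between −2.88 and −1.08, and all 25 presynaptic genes to the right, between 0.63 and 3.62.

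The genes of the cell cycle fell together. All 30 members of a list of replication and mitosis genes were lower at P7, between −2.88 and −1.08 on the log2 scale with a median of −2.45, and in none did the ages overlap. Summed over the list, the libraries held 996.3 to 2428 CPM at E17.5 and 284.5 to 372.8 CPM at P7. Without E17.5 replicates 3 and 4 all 30 were still lower, with a median of −2.01. Mki67, which encodes the proliferation antigen Ki-67, had between 108 and 290 CPM at E17.5 (median 142) and between 19.2 and 32.2 CPM at P7 (median 26.3). The 290 and 247 CPM of the S3 libraries were the highest values, and the 4 other embryos also lay far above every P7 library. Its log2 fold change was −2.75 ± 0.26 (SE, adjusted p = 3.26e-07). Top2a, the topoisomerase that untangles replicated DNA, went from 114 to 315 CPM (median 170) down to 19.8 to 30.9 CPM (median 26), a change of −2.88 ± 0.24 (adjusted p = 1.17e-07). Ccnb2, a mitotic cyclin, had 8.01 to 22.6 CPM (median 12.6) and then 2.04 to 2.95 CPM (median 2.3). Kif11, a spindle motor, had 41 to 109 CPM (median 56.8) and then 8.57 to 12.2 CPM (median 11.3). Pcna, the sliding clamp of DNA polymerase, which is also used in DNA repair, fell least of the 30, from a median of 90.9 to one of 46.2 CPM.

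The promoters of these genes were searched for motifs known from cell cycle genes, the CCAAT box, which the factor NF-Y binds, and TTTGAA, the core of the cell cycle genes homology region. The 250 bases before the transcription start were read on both strands from RefSeq promoters (GRCm38.p6), which gave one for 26 of the 30 genes. CCAAT was present in 23 of the 26 (88.5%), against 37.5% of 27025 genes with a promoter and 40.1% of the 11870 of them tested in WT cortex. TTTGAA was present in 8 of 26 (30.8%), against 18.3% of all and 12.9% of tested genes, and the same 8 held both motifs, as 6.45% of all and 4.95% of tested genes did. For comparison, CCAAT was found in 30% of the presynaptic genes with a promoter, 29.8% of the ribosomal protein genes and 46.2% of the myelin genes. Matches of these letters do not show binding. Genes were not compared by their change with age, so these shares describe the list and not its fall. The 200 bases before the start of 4 genes with both motifs, chosen with their values known as windows that enter no other gene, are printed 5′ to 3′ on the strand of the gene so that the arrangement can be seen. Capitals mark CCAAT, or ATTGG where it lies on the other strand, and TTTGAA, or TTCAAA on the other strand, and no 2 matches overlap.
Mki67, chr7:135716380-135716579, minus strand: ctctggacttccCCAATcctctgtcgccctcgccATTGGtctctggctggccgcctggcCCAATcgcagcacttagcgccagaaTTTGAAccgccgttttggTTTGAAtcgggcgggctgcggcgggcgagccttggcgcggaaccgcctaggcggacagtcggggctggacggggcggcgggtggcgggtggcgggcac
Top2a, chr11:99024190-99024389, minus strand: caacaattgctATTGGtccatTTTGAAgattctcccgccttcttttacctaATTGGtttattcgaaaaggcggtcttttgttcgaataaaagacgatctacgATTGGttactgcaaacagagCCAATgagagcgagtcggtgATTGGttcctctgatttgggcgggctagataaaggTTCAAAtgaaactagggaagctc
Ccnb2, chr9:70421555-70421754, minus strand: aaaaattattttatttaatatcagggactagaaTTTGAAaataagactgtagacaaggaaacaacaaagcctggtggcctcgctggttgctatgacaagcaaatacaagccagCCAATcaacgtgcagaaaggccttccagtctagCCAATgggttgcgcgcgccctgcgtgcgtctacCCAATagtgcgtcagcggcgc
Kif11, chr19:37376182-37376381, plus strand: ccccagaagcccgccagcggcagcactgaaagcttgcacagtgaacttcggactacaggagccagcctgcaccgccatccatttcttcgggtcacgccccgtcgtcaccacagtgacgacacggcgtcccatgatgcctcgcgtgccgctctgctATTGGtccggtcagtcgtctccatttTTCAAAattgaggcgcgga
The Mki67 window held 3 CCAAT and 2 TTTGAA matches, that of Top2a 5 and 2, that of Ccnb2 3 and 1, and that of Kif11 1 of each. The levels of these 4 genes are those given in the preceding paragraph.

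Progenitor genes fell with them, most steeply those of intermediate progenitors. All 13 tested members of the intermediate progenitor list were lower at P7 (median −1.79), as were 12 of 15 radial glia genes (median −1.32). Neurog2, the proneural factor that starts the excitatory neuron program, had 20.5 to 98 CPM at E17.5 (median 35.3) and 0.0284 to 0.386 CPM at P7 (median 0.183). This fall of 7.9 ± 0.57 on the log2 scale (adjusted p = 2.74e-08), 238-fold, was the largest among protein-coding genes with at least 10 CPM at the higher age. Eomes, the T-box factor of intermediate progenitors, had 46.2 to 190 CPM at E17.5 (median 77.3). At P7 it was at 0.284 to 1.1 CPM in 5 libraries and at 16.2 CPM in replicate 1, and the fitted change was −4.91 ± 0.91 (adjusted p = 0.000221). Tfap2c showed the same pattern, with 7.4 to 36.2 CPM and then 0.339 to 2.04 CPM, the highest P7 value again in replicate 1. Insm1, a zinc finger factor of cells leaving the apical surface, went from 44 to 123 CPM (median 66.7) to 3.73 to 5.24 CPM (median 4.38). Neurog1 was too low to be tested, with 122 counts over the E17.5 libraries and 1 over the P7 libraries, a ratio of 149 (95% interval 26.2 to 5910, counting error only).

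Radial glia genes were divided. Pax6, the dorsal progenitor factor, had 25.1 to 69 CPM at E17.5 (median 32.4) and 5.51 to 11.1 CPM at P7 (median 6.39). Nes, the intermediate filament nestin, went from 172 to 384 CPM (median 216) to 26.5 to 33.8 CPM (median 29.3), a change of −3.02 ± 0.18 (adjusted p = 5.26e-09). Celsr1, a planar polarity cadherin that is not in the list, was among the 10 largest falls, from 90.2 to 305 CPM (median 135) to 7.23 to 13.6 CPM (median 9.88). By contrast, the Notch effector Hes5 had 16.2 to 26.1 CPM at E17.5 and 15.1 to 21 CPM at P7, with a log2 fold change of −0.02 ± 0.12 (adjusted p = 0.914), and its relative Hes1 was not called either. Slc1a3, the glutamate transporter GLAST that astrocytes keep, rose from a median of 174 to one of 385 CPM (log2 fold change 1.22 ± 0.09, adjusted p = 2.42e-08). Without E17.5 replicates 3 and 4, 2 radial glia genes were higher and 12 lower, with a median of −0.978.

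Genes of newborn and migrating neurons were mostly lower. In the immature neuron list 15 of 20 members fell and 3 rose (median −0.942). Sox11, a SoxC factor of young neurons, went from 1941 to 3647 CPM (median 2307) to 130 to 206 CPM (median 195), a 14.4-fold fall (−3.85 ± 0.2, adjusted p = 1.68e-09). Igfbpl1, known from migrating neuroblasts, fell 51.5-fold, from 250 to 525 CPM (median 350) to 3.32 to 13.9 CPM (median 6.02). Dcx, the microtubule protein doublecortin, changed less, from 840 to 1823 CPM (median 1048) to 370 to 789 CPM (median 537), a log2 fold change of −1.06 ± 0.21 (adjusted p = 0.000333). Its ages were separate but nearly met. Gpc2, a glypican of growing axons, was among the 10 largest falls, from 296 to 369 CPM (median 332) to 11.2 to 25.9 CPM (median 18.3). The 3 that rose were Gap43, Stmn2 and Crmp1, which act in growth cones and neurites. Gap43 had 148 to 385 CPM (median 291) and then 618 to 1078 CPM (median 943), a change of 1.72 ± 0.21 (adjusted p = 5.03e-06). The neuronal tubulin Tubb3 had 1577 to 2263 CPM at E17.5 and 1613 to 2266 CPM at P7 and was not called.

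Of 23 tested transcription factors that specify cortical layers and projection neurons, 16 were lower, 4 higher and 3 not called (median −0.916). Bcl11b, also called Ctip2, the factor of subcerebral neurons, went from 183 to 355 CPM (median 229) to 102 to 151 CPM (median 113). Neurod2 had the largest fall of this list, from 322 to 526 CPM (median 369) to 71.7 to 84.9 CPM (median 79.4), or −2.35 ± 0.12 (adjusted p = 2.14e-09). The 4 that rose were Mef2c, Etv1, Lmo4 and Foxp1. Etv1, a factor of layer 5 neurons, had the largest rise, from 12.7 to 36.5 CPM (median 30.2) to 55.4 to 112 CPM (median 61.5), with its highest value in P7 replicate 4.

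Genes of the transient subplate and Cajal-Retzius cells went both ways, 5 of 13 up and 7 down (median −0.297). Those of Cajal-Retzius cells were lower. Trp73 had 6.09 to 12.6 CPM (median 8.78) and then 1.11 to 2.7 CPM (median 1.71), a change of −2.41 ± 0.23 (adjusted p = 4.11e-07), and Nhlh2 went from 7.76 to 30.6 CPM (median 16) to 0.937 to 1.99 CPM (median 1.15). Reln, the secreted layering signal, which interneurons also make, had 450 to 531 CPM and then 295 to 455 CPM (−0.4 ± 0.1, adjusted p = 0.00208). Cplx3, a complexin of subplate neurons, rose 72.3-fold, from at most 0.283 CPM to between 5.71 and 11.2 CPM (median 7.81).

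Synaptic genes were higher at P7 almost without exception. All 25 presynaptic genes rose (median 1.72), 22 of them by at least 2-fold, and their summed level went from 1573 to 2280 CPM up to 6775 to 9073 CPM. All 25 also rose without E17.5 replicates 3 and 4 and without P7 replicates 1 and 4. Syp, the vesicle protein synaptophysin, had 78.1 to 99.8 CPM (median 90.8) and then 470 to 614 CPM (median 563), a log2 fold change of 2.64 ± 0.09 (adjusted p = 1.47e-10). Slc17a7, the vesicular glutamate transporter VGLUT1, had 30.6 to 34.6 CPM (median 32.6) and then 336 to 466 CPM (median 400), 12.3-fold higher (3.62 ± 0.09, adjusted p = 4.43e-11). The embryos, S3 included, differed little in this gene. Slc17a6, the vesicular transporter VGLUT2, had the smallest rise of the list, 0.63 on the log2 scale.

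On the postsynaptic side 24 of 25 genes rose (median 1.21). Homer1, a scaffold gene, had 137 to 177 CPM and 147 to 164 CPM and was not called. Dlg4, which encodes the scaffold PSD-95, had 116 to 148 CPM (median 138) and then 325 to 462 CPM (median 390), a change of 1.49 ± 0.09 (adjusted p = 6.58e-09). Camk2a, the kinase of synaptic plasticity, had 3.82 to 9.14 CPM (median 7.85) and then 144 to 414 CPM (median 175), with the highest value in P7 replicate 4. It was 28.5-fold higher (4.83 ± 0.3, adjusted p = 8.22e-09). Nrgn, the calmodulin-binding protein neurogranin, rose from 1.31 to 11.7 CPM (median 5.3) to 260 to 385 CPM (median 355), 55.7-fold (5.8 ± 0.49, adjusted p = 1.33e-07). Its lowest embryonic values, 1.31 and 1.43 CPM, were those of the S3 libraries. Slc30a3, the transporter that loads zinc into glutamatergic vesicles, and Cpne6, a calcium-binding copine, were among the 10 largest rises by the same rule. Slc30a3 had at most 0.623 CPM at E17.5 and 21.2 to 44.4 CPM at P7, and Cpne6 had 0.592 to 2.55 CPM and then 75.3 to 97.7 CPM.

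**Figure D2:**
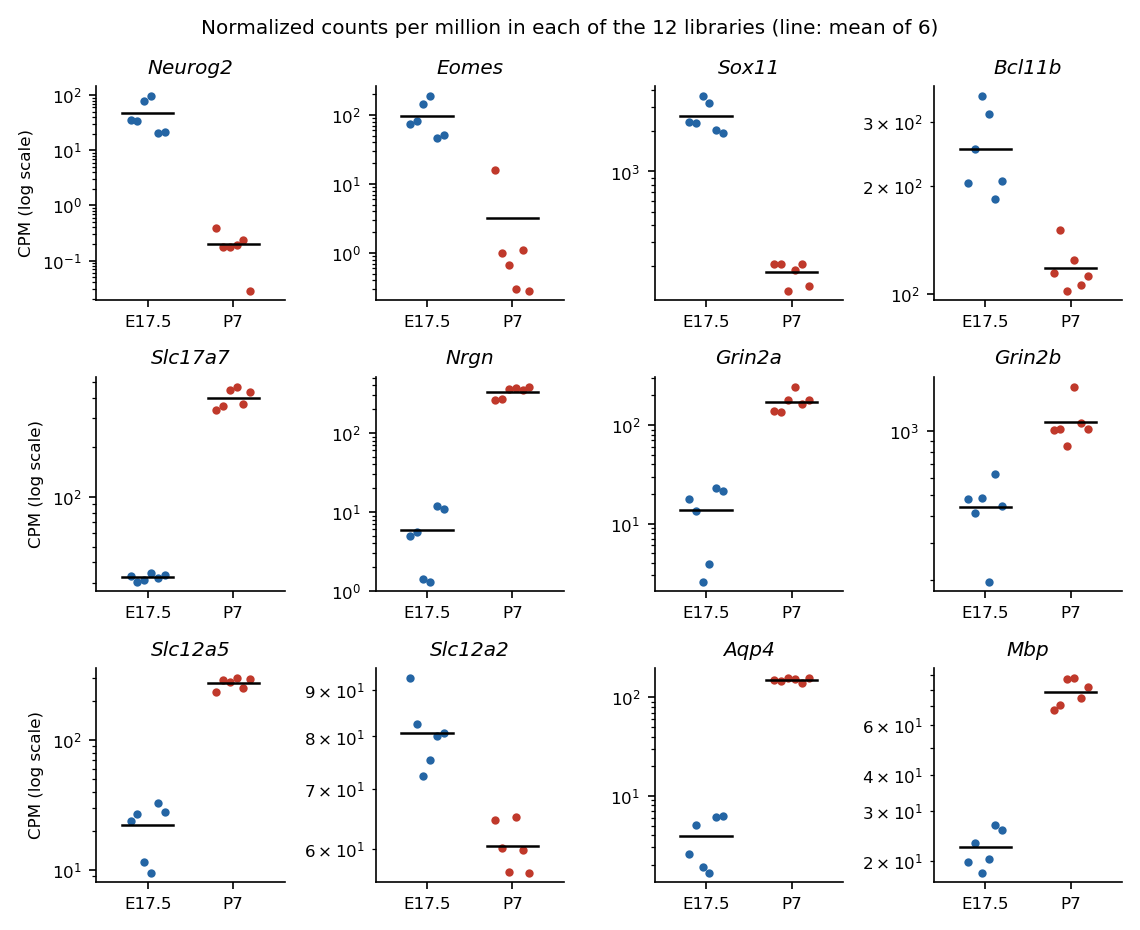
CPM (log axes) of 12 genes in each E17.5 (blue) and P7 (red) WT cortex library, replicates 1 to 6 from left within an age, with a line at the mean of 6. The ages do not overlap in any of them, the lowest 2 points of Grin2a and Slc12a5 at E17.5 are both S3 libraries, and Eomes is high in 1 P7 library.

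Glutamate receptor genes rose in 18 of 22 and fell in 2, Gria2 and Grik3 (median 1.45). Grin2a and Grin2b, the NMDA receptor subunits whose balance is known to shift as the cortex matures, both rose. Grin2a had 2.57 to 22.9 CPM (median 15.7) and then 135 to 245 CPM (median 171), a 12.7-fold rise (3.66 ± 0.45, adjusted p = 5.19e-06). Grin2b had 196 to 631 CPM (median 464) and then 853 to 1620 CPM (median 1027), a 2.5-fold rise (1.32 ± 0.23, adjusted p = 0.000109). Per kilobase of exon, mean Grin2a was at 0.764 CPM and Grin2b at 17.8 CPM at E17.5, and at 9.68 and 44.5 CPM at P7, so that Grin2b remained the higher at both ages. Gria2, the AMPA receptor subunit that limits calcium entry, was slightly lower at P7, 591 to 649 CPM against 576 to 955 CPM at E17.5, with overlap (−0.31 ± 0.1, adjusted p = 0.0115).

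Of 20 genes of GABA signalling 18 rose and 1 fell (median 1.87). The exception was Slc12a2, which encodes the chloride importer NKCC1, with 72.3 to 92.9 CPM (median 80.4) and then 56.5 to 65.2 CPM (median 60), a change of −0.41 ± 0.07 (adjusted p = 6.16e-05). Its counterpart Slc12a5, the chloride exporter KCC2, had 9.52 to 32.7 CPM (median 25.5) and then 235 to 302 CPM (median 284), 12.5-fold higher (3.64 ± 0.28, adjusted p = 4.44e-08). Per kilobase of exon, mean Slc12a5 was at 2.97 CPM and Slc12a2 at 7.39 CPM at E17.5, whereas at P7 Slc12a5 was at 37.1 and Slc12a2 at 5.54 CPM.

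Ion channel genes rose in 25 of 27 (median 1.71). Scn1a, a sodium channel known from fast-spiking interneurons, had 16.6 to 31 CPM (median 22.1) and then 58.4 to 74.3 CPM (median 62.5). Scn3a, the sodium channel typical of embryonic neurons, had 131 to 221 CPM and then 169 to 199 CPM and was not called (adjusted p = 0.898), but without E17.5 replicates 3 and 4 it was called lower (−0.18, adjusted p = 0.0209). Kcnj4, an inward rectifier, rose most, from 0.602 to 3.22 CPM (median 1.51) to 51.2 to 65.8 CPM (median 54.6), 34-fold. Of 20 cytoskeleton genes 14 rose and 5 fell (median 0.794), and their summed level overlapped between the ages. Nefh, the heavy neurofilament, had 0.696 to 1.95 CPM and then 13.3 to 19.4 CPM, and Tuba4a, an adult α-tubulin, rose 22.3-fold, from 8.66 to 12.8 CPM to 197 to 301 CPM. Tubb2b, a tubulin of migrating neurons, fell from 3111 to 4731 CPM (median 4231) to 1822 to 2916 CPM (median 2669). Tubulin genes resemble each other, so that reads may be shared between them.

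Among interneuron genes, the factors of the ventral forebrain and the markers of mature types moved apart. Of 13 tested ventral factors 8 fell and 1 rose (median −0.622), whereas 9 of 13 tested markers rose and 2 fell (median 2.36). Lhx6, the factor of interneurons from the medial ganglionic eminence, went from 55.7 to 70 CPM (median 62.3) to 27.1 to 37.9 CPM (median 29.1), a change of −1.06 ± 0.09 (adjusted p = 1.16e-07). Dlx1 was not called (−0.37 ± 0.2, adjusted p = 0.113), with its highest P7 value, 51.7 CPM, in replicate 1, and was called lower without P7 replicates 1 and 4 (−0.54, adjusted p = 0.0186). The one that rose was Dlx6, from a median of 0.905 to one of 3.38 CPM, with overlap. Vip, the peptide of disinhibitory interneurons, was at 0 to 0.354 CPM at E17.5 and at 7.53 to 12.3 CPM at P7, 96.4-fold higher (6.59 ± 0.43, adjusted p = 1.29e-08). Sst, somatostatin, had 6.85 to 14.3 CPM (median 10.3) and then 47 to 86.6 CPM (median 66.9). Pvalb, the calcium buffer of fast-spiking cells, had 1 count over the E17.5 and 49 over the P7 libraries, too few to be tested, a ratio of 40.2 (95% interval 6.89 to 1620, counting error only). Htr3a, a serotonin-gated channel, fell, from 4.45 to 12.6 CPM to 2.77 to 3.92 CPM.

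Glial genes were higher at P7. In the astrocyte list 18 of 20 genes rose and 1 fell (median 2.15). Aqp4, the water channel of astrocyte endfeet, had 1.66 to 6.21 CPM (median 3.81) and then 141 to 158 CPM (median 151), 38.7-fold higher (5.27 ± 0.31, adjusted p = 4.97e-09). Its P7 libraries lay close together, while the S3 embryos had the lowest values. Gfap, the glial intermediate filament, went from 1.36 to 10.6 CPM (median 6.61) to 90.6 to 122 CPM (median 97.8). Gjb6, the gap junction protein connexin 30, had 0 to 0.194 CPM and then 7.31 to 9.62 CPM. Gpr37l1, a receptor of astrocytes that was not in the list, was among the 10 largest rises of protein-coding genes with at least 10 CPM at P7, from 0.139 to 0.66 CPM to 53.1 to 77.2 CPM (7.51 ± 0.26, adjusted p = 1.47e-10). The member that was lower, Sox9, a factor that progenitors also use, had 11 to 28.9 CPM and then 8.4 to 21.3 CPM (−0.58, adjusted p = 0.0802), and this call was lost without any of 7 single libraries, or without E17.5 replicates 3 and 4 (−0.17, adjusted p = 0.527).

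All 15 oligodendrocyte precursor genes rose (median 2.62), 14 by at least 2-fold. Pdgfra, the growth factor receptor of these precursors, had 8.78 to 48 CPM (median 25.2) and then 147 to 160 CPM (median 153), a change of 2.51 ± 0.36 (adjusted p = 2.18e-05). Cspg4, which encodes NG2, went from 8.78 to 21.2 CPM (median 15.5) to 37 to 46.8 CPM (median 38.4). Enpp6, a marker of cells newly turning into oligodendrocytes, had 1 count over the E17.5 and 1290 over the P7 libraries, a ratio of 1060 (95% interval 190 to 41900, counting error only). Myelin genes rose in 14 of 15 tested (median 2.7). Mbp, myelin basic protein, had 18.1 to 26.6 CPM (median 21.7) and then 68 to 88.3 CPM (median 78.4), 3.53-fold higher (1.82 ± 0.11, adjusted p = 4.64e-09). Fa2h, which makes myelin lipids, had no count at E17.5 and 0.693 to 1.68 CPM at P7, at least 57.8-fold higher with a floor of 3 counts over the E17.5 libraries. Mog and Opalin, markers of myelinating oligodendrocytes, stayed too low to be tested at both ages. The one myelin gene that fell was Ermn, from 1.22 to 3.5 CPM to 0.47 to 0.892 CPM.

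Microglia genes rose in 17 of 18 (median 1.91). Cx3cr1, the fractalkine receptor, had 6.22 to 9.24 CPM (median 7.2) and then 24 to 33.8 CPM (median 28.1), a change of 1.91 ± 0.11 (adjusted p = 3.58e-09). P2ry12, the purinergic receptor, went from 3.23 to 5.59 CPM to 13.8 to 17.1 CPM (1.9 ± 0.12, adjusted p = 1.12e-08), and Gpr34 rose most, by 2.27. The exception was Sall1, a factor that neural progenitors also express, with 12.2 to 43.9 CPM and then 8.54 to 17 CPM, overlapping (−1.02 ± 0.32, adjusted p = 0.00966).

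**Figure D3:**
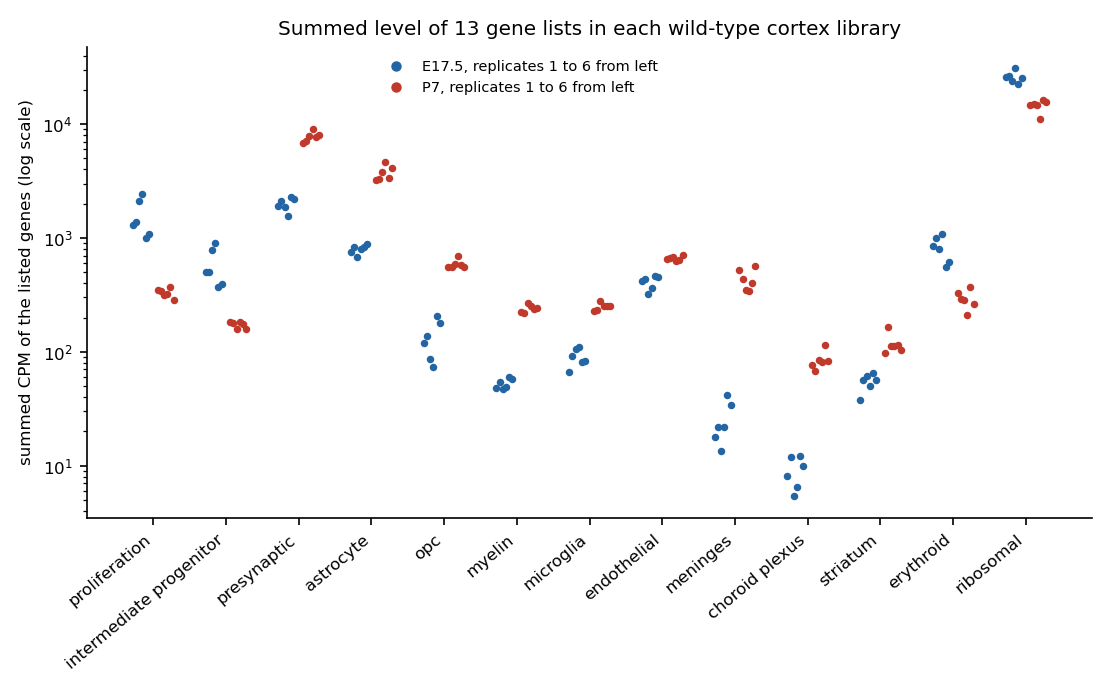
Summed CPM (log axis) of 13 gene lists in each WT cortex library, E17.5 in blue and P7 in red, replicates 1 to 6 from left within each age. The ages are separate in all 13 lists, proliferation genes are highest in E17.5 replicates 3 and 4, and meninges genes go from at most 42.09 to at least 342 CPM.

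Genes of blood vessels changed less. Of 18 endothelial genes 15 rose and 1 fell (median 0.7), and of 10 mural cell genes 6 rose and 2 fell (median 0.477). Cldn5, the tight junction protein of the blood-brain barrier, had 21.3 to 33.9 CPM (median 33) and then 42.5 to 53.5 CPM (median 51), a change of 0.73 ± 0.11 (adjusted p = 4.55e-05). Slco1a4, a barrier transporter of organic anions, was the exception in size, from at most 0.178 CPM to 8.63 to 12 CPM (6.45 ± 0.28, adjusted p = 6.35e-10). Slc2a1, the glucose transporter GLUT1, fell from 36 to 42.8 CPM (median 38.1) to 21.7 to 28.7 CPM (median 23.5). Rgs5, a pericyte marker, rose from 59.2 to 89.6 CPM to 121 to 134 CPM, while Abcc9, a potassium channel partner of pericytes, fell from 18.8 to 25.9 CPM to 14.3 to 17.2 CPM. The call of Pdgfrb, the pericyte receptor (0.27, adjusted p = 0.0395), was lost without E17.5 replicates 3 and 4 (adjusted p = 0.168) and without P7 replicates 1 and 4 (adjusted p = 0.121).

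Markers of tissues that border the cortex also moved with age. All 12 genes of meninges rose (median 3.64), and their sum went from 13.36 to 42.09 CPM up to 342 to 569.9 CPM. Ptgds, prostaglandin D synthase, had 0.313 to 3.18 CPM (median 1.52) and then 146 to 274 CPM (median 217), 136-fold higher (7.08 ± 0.41, adjusted p = 4.04e-09). The collagen gene Col1a1 had 1.2 to 3.86 CPM (median 1.84) and then 26.3 to 47.1 CPM (median 35.8), and the proteoglycan gene Dcn went from 0.418 to 3.8 CPM to 17 to 33.1 CPM. How much of this came from more membrane in the P7 dissections was not tested. Choroid plexus genes rose in 7 of 7 tested (10 listed, median 2.65, sums of 5.393 to 12.22 and 67.75 to 113.8 CPM). The defining marker of that tissue, Ttr, had a median of 0.852 CPM at E17.5 and 0.504 CPM at P7, with 33 CPM in P7 replicate 5. Its fitted rise (2.65, adjusted p = 0.0634) turned to −0.93 (adjusted p = 0.152) without that library. Striatum genes rose in 8 of 11 (median 1.83). Without P7 replicate 2, which stood apart in their sum, the median was 1.61, and it was 1.24 without E17.5 replicate 1, when a further gene was tested. Leaving out E17.5 replicate 6 or P7 replicate 1, 3, 4, 5 or 6 singly gave medians of 1.35 to 1.37. Drd1, the dopamine receptor, was not called, with 10.5 to 17.7 CPM and then 12.7 to 21.2 CPM. Of 7 thalamus genes 3 rose and 2 fell, and Gbx2, the defining factor, was at 0 in all E17.5 libraries and at most at 0.26 CPM at P7. Only Zic1 of the 9 hindbrain genes was tested, and it fell (−1.48, adjusted p = 0.00678). All 7 tested red blood cell genes fell (median −1.44), with sums of 557.9 to 1087 CPM and then 210.1 to 367.6 CPM. The α-globin genes Hba-a1 and Hba-a2 share reads, and each was lower at P7. Of 8 genes of cortical identity 7 fell and only Slc17a7 rose (median −1.22).

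Genes of fetal growth, protein synthesis and respiration went in different directions. Of 18 tested fetal growth genes, many of them imprinted, 11 fell and 5 rose (median −0.755). Igf2bp1, an mRNA-binding protein of embryonic tissues, had 29.4 to 69.3 CPM (median 38.6) and then 0.347 to 0.855 CPM (median 0.683), 68.2-fold lower (−6.09 ± 0.28, adjusted p = 8.27e-10). Mest, an imprinted gene, was not called (adjusted p = 0.264) and was at 0.0289 CPM in P7 replicate 2, its lowest value by far. Igf2, the growth factor, went the other way, from 12.8 to 19.8 CPM (median 17.1) to 51.4 to 83.9 CPM (median 65.5). Igf2 is also made by meninges and vessels, whose genes rose, and their part in this was not tested. Of 77 genes of cytosolic ribosomal proteins 74 fell and none rose (median −0.898). The sum ran from 22660 to 30830 CPM at E17.5 and from 11120 to 16140 CPM at P7, the lowest value in replicate 4. Rplp0 had 746 to 1030 CPM (median 837) and then 314 to 454 CPM (median 417), a change of −1.07 ± 0.1 (adjusted p = 2.89e-07), and Rpl27 fell most, by 1.38. Rplp1, Rps2 and Rps16 were not called. These genes have many pseudogene copies that can share their reads. Of 74 oxidative phosphorylation genes 58 rose and 1 fell (median 0.359), none by 2-fold. Cox8a, a cytochrome oxidase subunit, had the largest rise, from 81.4 to 107 CPM to 151 to 215 CPM (0.97 ± 0.1, adjusted p = 6.06e-07), and Atp5g2, a subunit of ATP synthase, fell (−0.45 ± 0.11, adjusted p = 0.00249). Without P7 replicates 1 and 4, 67 of the 74 were higher.

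Of 12 DNA methylation genes 7 fell and 2 rose (median −0.567). Dnmt1, the maintenance methyltransferase of dividing cells, fell from 235 to 267 CPM (median 243) to 108 to 126 CPM (median 115), a change of −1.09 ± 0.06 (adjusted p = 2.03e-09), and its partner Uhrf1 from 24.9 to 69.7 CPM (median 31.5) to 4.6 to 7.67 CPM (median 7.06). Dnmt3a, which sets new methylation in young neurons, rose from 120 to 146 CPM (median 137) to 363 to 459 CPM (median 382), or 1.54 ± 0.07 (adjusted p = 1.05e-09). In a list of extracellular matrix genes 12 of 17 rose and 5 fell (median 1.21). Hapln1, the link protein that ties hyaluronan to proteoglycans in perineuronal nets, had the largest rise among protein-coding genes with at least 10 CPM at P7, from 0 to 0.35 CPM to 31.3 to 44.9 CPM (median 38.6), 225-fold (7.82 ± 0.31, adjusted p = 4.21e-10). Susd5, which has a hyaluronan-binding domain, came next with 0 to 0.106 CPM and then 5.72 to 15.6 CPM (7.76 ± 0.38, adjusted p = 1.22e-09). Tnc, tenascin C of the progenitor niche, fell from 237 to 507 CPM (median 431) to 90.4 to 123 CPM (median 106).

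Of 17 immediate early genes 13 rose and 4 fell (median 2.32). Fos had 0.66 to 1.19 CPM (median 0.957) and then 4.28 to 7.18 CPM (median 6.22), a change of 2.69 ± 0.19 (adjusted p = 1.90e-08), and Arc, which acts at synapses, 1.06 to 2.87 CPM and then 9.39 to 13.4 CPM. Egr4 rose most, from at most 0.208 CPM to 4.53 to 7.44 CPM, and Dusp1, a phosphatase induced by stress, fell from 12 to 19.5 CPM to 6.15 to 8.63 CPM. Genes of thyroid hormone action rose in 9 of 10 (median 1.24). Klf9, a target of the hormone, had 2.61 to 8.64 CPM (median 4.93) and then 77.4 to 118 CPM (median 96.7), 18-fold higher (4.17 ± 0.29, adjusted p = 1.82e-08), and Dio2, which makes the active hormone, 9.26 to 27 CPM and then 39.9 to 66 CPM. One of the 9 was Ttr, described with the choroid plexus. Of 22 genes of cholesterol synthesis and turnover 12 rose and 5 fell (median 0.266), most by under 2-fold. Apoe, the carrier of lipids made by astrocytes, rose from 23.5 to 45.4 CPM (median 36.9) to 467 to 625 CPM (median 522), 15.1-fold.

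The gene mutated in the line changed little with age in WT cortex. Cul3 had 189 to 205 CPM at E17.5 (198 ± 5.86, SD, n = 6) and 173 to 193 CPM at P7 (182 ± 7.21, SD, n = 6), a log2 fold change of −0.13 ± 0.05 (adjusted p = 0.0236). The call was lost without E17.5 replicate 2 (−0.09, adjusted p = 0.118) and without P7 replicates 1 and 4 (−0.08, adjusted p = 0.137). Of 18 genes of the Cul3 complex, its adaptors and RhoA signalling, 7 rose and 7 fell (median 0.01). Rhoa had 97.2 to 123 CPM and then 121 to 145 CPM (0.26 ± 0.07, adjusted p = 0.00348). Rock1, a kinase that acts after RhoA, had the only change of at least 2-fold, from 87.3 to 110 CPM (median 92) to 25.7 to 34.1 CPM (median 31.2), or −1.63 ± 0.08 (adjusted p = 1.49e-09).

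Other genes with the largest changes fitted none of the lists. Trpa1, an irritant-gated cation channel, had 0 to 0.248 CPM and then 10.7 to 14.1 CPM (6.99 ± 0.34, adjusted p = 1.22e-09), and Slc17a8, the vesicular glutamate transporter VGLUT3, 0.104 to 0.583 CPM and then 13 to 24 CPM (6.35 ± 0.3, adjusted p = 1.15e-09). Sinhcaf, a subunit of a histone deacetylase complex, fell from 53.5 to 125 CPM (median 78.8) to 3.49 to 5.41 CPM (median 4.66). Hist1h2bq, a histone gene, fell as well, but near-identical histone genes share its reads. Among genes of other kinds Bc1, a small RNA of dendrites, rose 21.7-fold, from 1.53 to 5.28 CPM to 59.2 to 99.1 CPM. The long noncoding RNAs Gm10419 and A830036E02Rik rose 15.6-fold and 14.3-fold. Gm11518, a processed pseudogene, had 10.5 to 29.7 CPM at E17.5 and no count at P7, at least 1440-fold lower with a floor of 3 counts over the P7 libraries. Gm22317 and Gm25679, small nuclear RNA genes, were also lower. Reads of these 3 may belong to other copies.

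The embryos also differed among themselves in the genes of this change. For each library, the deviation from the E17.5 mean was taken over the 3735 genes that rose and the 2631 that fell by at least 2-fold, which describes the spread within an age by genes chosen between ages. Over the genes that rose, the median deviation on the log2 scale was −0.322 and −0.317 in the S3 libraries, 0.00376 and 0.152 in S2 and 0.274 and 0.236 in S4. Over those that fell, it was 0.162 and 0.17 in S3, 0.00969 and −0.0533 in S2 and −0.136 and −0.15 in S4. The P7 libraries lay at 1.78 to 1.97 and at −1.27 to −1.49, a distance that follows from choosing genes that differ by at least 2-fold between the ages. Both S3 libraries were below the other 4 in 1629 of the genes that rose (43.6%) and above them in 1141 of those that fell (43.4%), against 16% and 15.2% of the 3276 genes not called. The S4 pair went the other way. It was above the other 4 in 1279 of the genes that rose (34.2%), against 9.34% of those not called. It was below them in 904 of the genes that fell (34.4%), against 8.64%. The S3 mice were also lowest in the genes that rose and highest in those that fell in HET cortex, which came from other mice, and in hippocampus of the same mice. There the median deviations over genes that rose were −0.25 and −0.364 in HET cortex and −0.329 and −0.388 in hippocampus. The hippocampus library at −0.388 is among those with the fewest uniquely mapped reads, which some later results leave out. Not every list that rose by P7 was lowest in S3: the summed microglia genes were highest there, 105.1 and 110.5 CPM against 66.69 to 92.21 CPM in the other 4 WT cortex libraries. The labels give every embryo as E17.5 and do not say whether a name stands for a litter or a day of collection.

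**Figure D4:**
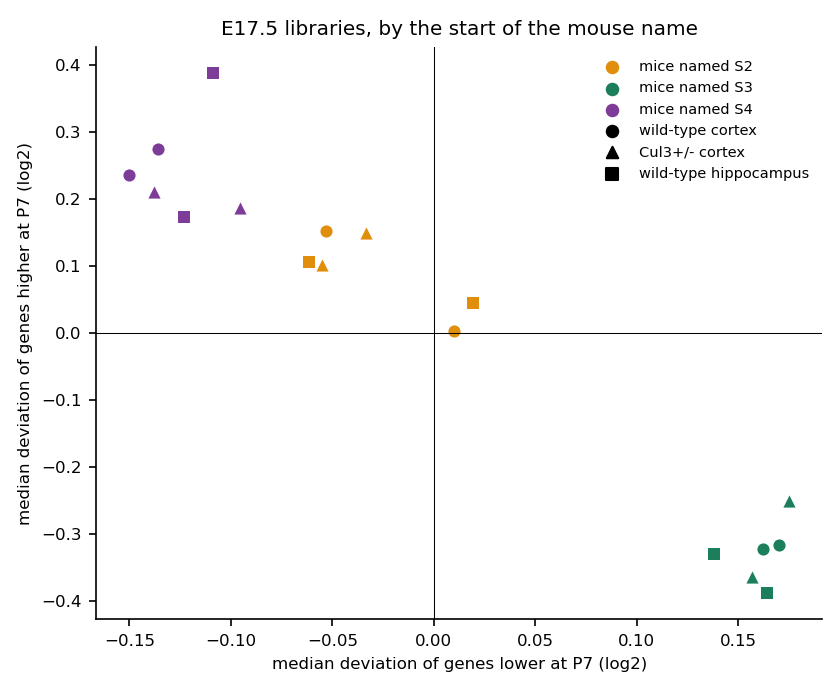
Median deviation of each E17.5 library from the E17.5 mean of its set, over the genes lower (horizontal) and higher (vertical axis) at P7 by at least 2-fold in WT cortex, both on the log2 scale. Colours give the start of the mouse name and shapes the set of libraries, and the 6 libraries of S3 mice lie at the lower right, apart from the other 12.

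The change of age recurred in mice that the WT comparison did not use. In HET cortex 7268 (42%) of 17310 genes tested were higher and 7448 (43%) lower at P7. Of the 14365 WT calls, 14054 were tested in HET cortex, and 13546 were called there with the same sign and 2 were called with the opposite sign. Of the HET calls, 14621 were tested in both, of which the same 13546 were WT calls. Cul3 was lower in every HET library, 108.1 to 115.8 CPM at E17.5 and 92.9 to 107.6 CPM at P7, than in every WT library of cortex. No gene passed the test of a different change of age between genotypes, 0 (0%) of 18402, by the quasi-likelihood test of edgeR, with 235 genes at an unadjusted p under 0.05. DESeq2 and edgeR's likelihood ratio test called 0 genes as well, with 237 and 256 at an unadjusted p under 0.05. All 3 numbers are below the share of 0.05 that a test gives without any difference. What made them so low was not tested, and the lack of calls does not show that the changes are equal. WT and HET mice share the starts of their names, and with these as a block, an alternative added after the data were seen, 0 genes were called again, with 717 at an unadjusted p under 0.05 and a smallest adjusted p of 0.698. Neurog2 fell by 7.9 in WT cortex, and the difference of the HET change from it was not called. The list medians in HET cortex were −2.56 for proliferation genes, 1.74 for presynaptic genes, 2.11 for astrocyte genes and −0.93 for ribosomal protein genes, beside −2.45, 1.72, 2.15 and −0.898 in WT cortex. The medians lay furthest apart for striatum genes, 0.575 in HET (5 up, 2 down) against 1.83 in WT cortex (8 up, 1 down), and next for meninges genes, 4.5 against 3.64. That these lists differ between the genotypes was not tested.

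In hippocampus of the same WT mice 6626 (37.5%) of 17662 genes were higher and 6936 (39.3%) lower at P7. With mouse as a block, the change of age differed between the regions for 7158 of 18774 genes, more upward in cortex for 3326 (17.7%) and more downward for 3832 (20.4%). Without the 2 E17.5 hippocampus libraries, replicates 1 and 4, that had the fewest uniquely mapped reads in the study's quality table, 5657 of 19199 genes were called. Of these, 2995 were more upward and 2662 more downward in cortex, and list counts without those libraries are to be read against these. The smallest p belonged to Fzd10, a Wnt receptor, which was higher at P7 in cortex (0.478 ± 0.168 to 3.42 ± 0.781 CPM, SD, n = 6) and lower in hippocampus (11.2 ± 3.39 to 1.46 ± 0.211 CPM), a log2 difference of 5.75 ± 0.21 (SE, adjusted p = 3.94e-09). Tpbg, a Wnt inhibitor also called 5T4, moved in the same way, by 1.51 in cortex and −1.73 in hippocampus on the log2 scale. Slc17a8 rose by 6.35 in cortex and 0.56 in hippocampus, A830036E02Rik by 3.84 in cortex against a log2 fold change of 0.1 in hippocampus that was not called, and Sidt1, a transmembrane protein of the RNA transporter family, by 5.9 and 3.05.

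Several genes of neurogenesis fell further in cortex, whereas radial glia genes as a list did not. Neurog2 kept 3.26 ± 0.937 CPM in P7 hippocampus (SD, n = 6), where cortex had 0.205 ± 0.12 CPM on the scale shared by both regions, and its log2 change was 3.45 lower in cortex. Igfbpl1 kept 65.7 ± 11.1 CPM in P7 hippocampus against 7.3 ± 3.83 CPM in cortex. Of the 30 proliferation genes 13 were more downward and 1 more upward in cortex, 8 and 1 without those 2 hippocampus libraries. Of 15 radial glia genes 4 were more downward and 2 more upward in cortex (1 and 2 without those libraries), with medians of −1.32 in cortex and −1.33 in hippocampus. Meninges genes were more upward in cortex in 12 of 12, also without those libraries, with list medians of 3.64 in cortex and 1.54 in hippocampus. Of these, Col1a1 started higher in hippocampus, at 12.4 ± 11.3 CPM at E17.5 against 2.1 ± 0.974 CPM in cortex. So did Dcn (15.7 ± 5.9 against 2.24 ± 1.25 CPM) and Ptgds (7.79 ± 7.55 against 1.61 ± 1.11 CPM). At P7 the means of Col1a1, Dcn and Ptgds were 45.8, 38.4 and 123 CPM in hippocampus and 37.7, 27.9 and 215 CPM in cortex. Microglia genes were more upward in cortex in 11 of 18 (10 without those libraries). Choroid plexus genes had medians of 2.65 in cortex and −0.149 in hippocampus. The cortex median is the fitted value of Ttr, which turned to −0.93 without P7 replicate 5. In hippocampus Ttr was at 797 ± 1871 CPM at E17.5 and 41.8 ± 52.5 CPM at P7, so this contrast is read with that spread. Ribosomal protein genes were more downward in cortex in 71 of 77 (56 without those 2 hippocampus libraries), with medians of −0.898 and −0.411. Susd5, Trpa1 and Hapln1, among the largest rises in cortex, rose by smaller factors in hippocampus, with log2 differences of 4.7, 4.38 and 1.69. Hapln1 still reached 78.2 ± 7.62 CPM in P7 hippocampus, against 39.9 ± 4.94 CPM in cortex on the shared scale. For Slco1a4 the hippocampal level at E17.5 varied widely, 5.5 ± 10.6 CPM, so that its difference of 5.28 is read with that spread.

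**Figure D5:**
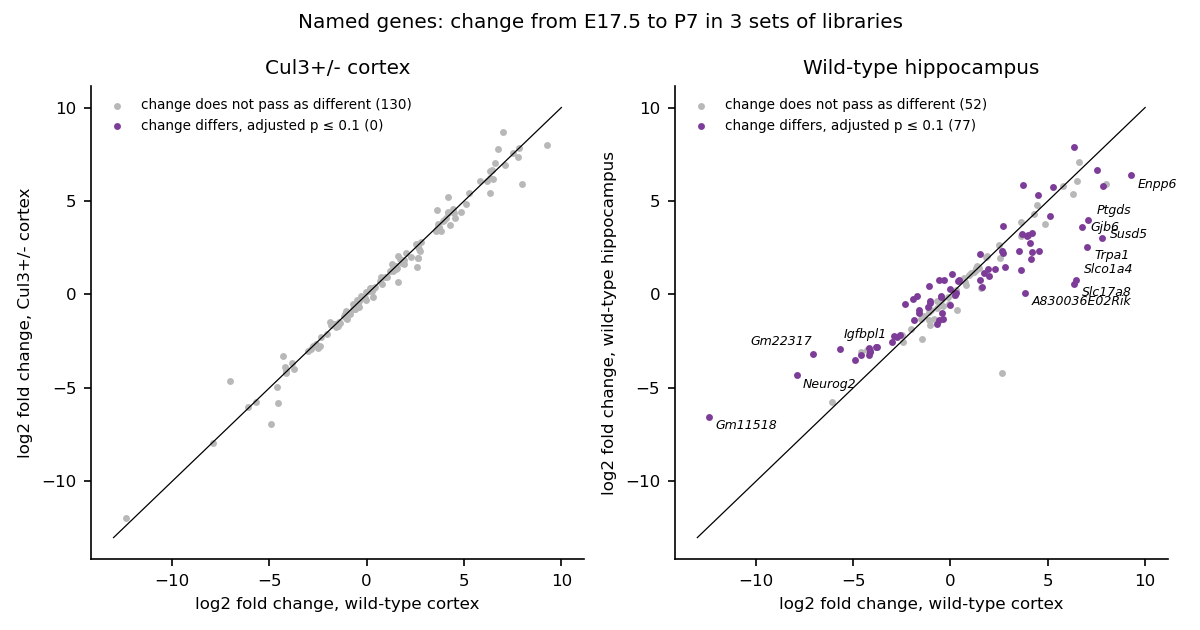
Log2 fold change of P7 over E17.5 of the named genes in WT cortex (horizontal axes) against HET cortex (left, 130 genes) and WT hippocampus (right, 129 genes), with a line of equal change. Both fits of a panel share no libraries, though cortex and hippocampus share mice; purple points are genes whose change differs at an adjusted p of 0.1, of which there are 0 on the left and 77 on the right, and labelled genes lie among the farthest from the line.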

How the data were processed

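Total RNA of dissected cortex, hippocampus and cerebellum was sequenced in E17.5, P7 and P35 mice. According to the study's methods and the submitters' processing notes, the authors prepared ribosome-depleted stranded libraries from equal amounts of RNA, trimmed reads with Cutadapt 1.14, aligned them with STAR 2.5.3a to GRCm38.p5 (mm10) and estimated counts per gene with RSEM 1.3. The deposited values are those expected counts, not normalized, in 1 table of 53465 genes and 108 libraries, in which 5.76% of all values were not whole. Reads shared between near-identical genes are divided by RSEM's model, and the strand setting of the counting is not given in the sources used here.

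Expected counts were rounded to whole numbers. Genes passed a filter of at least 10 counts (filterByExpr, minimum total 15). Libraries were scaled by TMM, with factors of 0.9726 to 1.037, and the ages were compared by the quasi-likelihood test of edgeR 4.0.16 in R 4.3.3, with 6 mice an age, Benjamini-Hochberg adjustment over all genes tested and a threshold of 0.1. The standard error (SE) was taken as the log2 fold change divided by the root of F. CPM are on TMM-scaled totals and given as lowest, median and highest, or mean ± SD. Genotype and region were tested as interactions with age, the latter with mouse as a block. The RUVs factors and sex term of the study's own models were not used. Counting intervals are exact at 95%, and where 1 group had no count a floor of 3 counts was used. They cover counting error only.

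Symbols of 53360 genes came from GENCODE M21, and 685 of 713 listed genes were tested, 8 of which are in more than 1 list. Members, gene lists and named genes were chosen with earlier results of these data known. Named were the 10 largest rises and 10 largest falls among called protein-coding genes with a mean of at least 10 CPM at the higher age and no overlap, 3 each way of other biotypes, and examples set for each list. A gene named outside this rule is one of the list's exceptions, its largest change, or, for regions, among the 5 smallest p. Promoters were RefSeq's, by symbol. P35 and cerebellum libraries were not tested, and 4 of the listed genes are not reported by name here. Alternatives were upper-quartile factors, library totals, DESeq2 1.42.0, a likelihood ratio test, no filter, CPM above 1 in 6 libraries, a replicate block, Xist as a covariate for sex, and each library left out. Leaving out 2 libraries together and a block for the start of the mouse name were added after the data were seen. The model was tested on simulated data.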

Additional observations from a re-analysis of the deposited data

Results flagged for a closer look

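Among 340 groups of 6 libraries examined (134 named genes and 36 summed lists at each age), 43 (12.6%) held 1 library whose gap to its nearest neighbour was too large a share of the range of the group by Dixon's criterion. The criterion gives about 5% for independent, normally distributed values. These were untransformed CPM, the lists contain named genes, and in Pvalb, Enpp6 and Gm22317 the other libraries of the group were at 0. The 12.6% can therefore not be set against 5%. No explanation was tested for any of the 43 groups. P7 replicate 4 was that library in 13 groups, P7 replicate 1 in 6, P7 replicate 2 in 5, and E17.5 replicates 2, 3 and 4 and P7 replicate 5 in 4 each, while E17.5 replicate 1 and P7 replicate 6 never were.

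P7 replicate 4 stood apart with 112 CPM for Etv1, 414 CPM for Camk2a, 1620 CPM for Grin2b, 21.3 CPM for Sox9, 1.68 CPM for Fa2h, 459 CPM for Dnmt3a, 314 CPM for Rplp0, 476 CPM for Rpsa, 4900 CPM for the sum of glutamate receptors, 3840 CPM for the sum of ion channels, 688 CPM for the sum of oligodendrocyte precursor genes, 1320 CPM for the sum of DNA methylation genes and 11100 CPM for the sum of ribosomal protein genes. P7 replicate 1 stood apart with 16.2 CPM for Eomes, 2.04 CPM for Tfap2c, 11.1 CPM for Pax6, 51.7 CPM for Dlx1, 27.3 CPM for Zic1 and 27.5 CPM for the sum of hindbrain genes. P7 replicate 2 stood apart with 0.491 CPM for Pvalb, 77.1 CPM for Klhl13, 0.26 CPM for Gbx2, 5.28 CPM for Lhx9 and 166 CPM for the sum of striatum genes. P7 replicate 5 stood apart with 75.3 CPM for Cpne6, 14.6 CPM for Gm25679, 33 CPM for Ttr and 114 CPM for the sum of choroid plexus genes. E17.5 replicate 4 stood apart with 26.1 CPM for Hes5, 11.1 CPM for Lhx9, 219 CPM for the sum of interneuron markers and 1560 CPM for the sum of matrix genes. E17.5 replicate 3 stood apart with 1820 CPM for Dcx, 0.0348 CPM for Pvalb, 3.51 CPM for Tcf7l2 and 1280 CPM for the sum of DNA methylation genes. E17.5 replicate 2 stood apart with 2.32 CPM for Dlx6, 0.0297 CPM for Enpp6, 0.208 CPM for Egr4 and 0.712 CPM for Gpr6. E17.5 replicate 6 stood apart with 0.583 CPM for Slc17a8. P7 replicate 3 stood apart with 3.52 CPM for Gm22317. E17.5 replicate 5 stood apart with 3.86 CPM for Col1a1.

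The change of age differed between cortex and hippocampus for 80 of the 133 named genes with that test (edgeR's quasi-likelihood test of the interaction with mouse as a block, adjusted p of 0.1 over 18774 genes). Of all genes 17.7% were more upward and 20.4% more downward in cortex. Fzd10, Tpbg and Sidt1 are among the 80 and were named only for their small p in this same test. The other named genes were chosen by their change in these cortex libraries or as list examples. The share of the named genes is therefore no measure against that of all genes. The log2 difference, cortex minus hippocampus, was positive for 40 genes, from 5.81 down to 0.206. The larger of these were 5.81 for Slc17a8, 5.75 for Fzd10, 5.28 for Slco1a4, 4.7 for Susd5, 4.38 for Trpa1, 3.75 for A830036E02Rik, 3.49 for Ptgds, 3.23 for Tpbg, 3.18 for Gjb6, 3.15 for Enpp6, 2.86 for Sidt1 and 2.35 for Dcn. Then came 1.96 for Col1a1, 1.8 for Prlr, 1.79 for Kl, 1.69 for Hapln1, 1.5 for Gfap, 1.33 for Dio2, 1.33 for Rora, 1.18 for Acta2 and 1.01 for Igf2. The others were 0.994 for Klf9, 0.98 for Emx1, 0.919 for Gpr34, 0.91 for Reln, 0.888 for Kcnj4, 0.817 for Apoe, 0.776 for Dnmt3a, 0.774 for Sox9, 0.767 for Gpr37l1, 0.734 for Gm10419, 0.649 for Gap43, 0.586 for Slc12a2, 0.581 for Cx3cr1, 0.562 for Hes5, 0.516 for Fos, 0.512 for Grin2a, 0.347 for Syp, 0.342 for Rhoa and 0.206 for Pecam1. It was negative for 40 genes, furthest with −5.8 for Gm11518, −4.25 for Gm22317, −3.45 for Neurog2, −2.84 for Igfbpl1, −2.56 for Eomes and −2.25 for Nefh. Next were −1.78 for Neurod2, −1.64 for Cpne6, −1.64 for Ermn, −1.64 for Neurod6, −1.56 for Bcl11b, −1.41 for Ppp1r1b, −1.27 for Sinhcaf, −1.26 for Tfap2c, −1.06 for Gria2, −1.02 for Drd1, −1.01 for Celsr1, −1.01 for Sst and −1 for Insm1, and the rest were −0.992 for Sox11, −0.942 for Gpc2, −0.864 for Tuba4a, −0.862 for Nhlh2, −0.721 for Scn1a, −0.711 for Htr3a, −0.693 for Lhx6, −0.612 for Rplp0, −0.58 for Rock1, −0.573 for Top2a, −0.561 for Aqp4, −0.457 for Nes, −0.452 for Dusp1, −0.395 for Tnc, −0.366 for Mki67, −0.366 for Rpsa, −0.363 for Uhrf1, −0.31 for Cox4i1, −0.305 for Ndufs1, −0.282 for Scn3a and −0.276 for Lss. Without the 2 hippocampus libraries with the fewest mapped reads, Acta2, Cox4i1, Dusp1, Enpp6, Fos, Gm22317, Mki67, Nes, Rpsa, Sox9 and Uhrf1 lost the call, and none of the 77 chosen from the cortex comparison had the opposite sign.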

How the results depend on the processing

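Over upper-quartile scaling, library totals alone, DESeq2, the likelihood ratio test, no filter, a filter of CPM above 1 in 6 libraries, the replicate block, the Xist covariate, the start of the mouse name as a block for genotype and libraries left out singly or in pairs, the counts of genes called stayed within 1.5 times their reported values in 157 of 158 results. The exception was the count of genes at least 2-fold higher at P7, 6313 without a filter on low counts against 3735, when 31659 genes were tested instead of 17641. Leaving out 1 library gave 14163 to 14565 genes called. The range was 6894 to 7283 for those higher and 7045 to 7495 for those lower at P7. It was 3750 to 4028 and 2529 to 2769 at 2-fold, 0 to 0 for the genotype interaction and 5735 to 7914 for the region interaction. Scalings moved the median of all genes between −0.03 and 0.01. In the region interaction 46.5% of calls were more upward in cortex, and 54.6% with upper-quartile scaling.

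Of 2946 values of named genes 2904 were counted as unchanged, 30 lost the call, 11 gained it and 1 reversed. That was Ttr, at −0.93 without P7 replicate 5 and 3.28 without E17.5 replicate 2. A change of sign was counted only for genes called in the main comparison, and a missing adjusted p was counted as unchanged. Of 792 list medians 43 moved by more than the spread between libraries, and that of the hindbrain list reversed, to 0.113 without a filter, where genes other than Zic1 entered it. A change of sign was counted as a reversal only where the main median exceeded that spread. The thalamus median, −0.0814, was therefore counted as moved when it was 0.401 without a filter.

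Replicate numbers are shared between the ages but come from different mice. Deviations of libraries with the same number correlated between −0.267 and 0.181 across genes, and 1 of 6 correlated best with its own number, so the numbers pair nothing. A replicate block gave 13870 genes called (6759 higher and 7111 lower) and ended the calls of Cul3 (adjusted p = 0.107, edgeR's quasi-likelihood test) and Ttr (adjusted p = 0.756). Without a block for mouse the region interaction was called for 5463 genes. Depth limited genes under about 10 counts, which were not tested.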

Other observations

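Mest, an imprinted gene expressed from the paternal chromosome (chromosome 6, 30723547 to 30748465, GRCm38), was all but missing from 1 mouse. P7 replicate 2 held 1 count in cortex, 0.0289 CPM, where the other 5 P7 libraries held 46.4 to 60.6 CPM. The same mouse held 0.0915 CPM in cerebellum and 0.349 CPM in hippocampus, where the other 11 P7 libraries of each region held 50.5 to 67.3 CPM and 33.4 to 66.8 CPM. No other library of the 108 was under 1 CPM. Of the neighbouring genes, Copg2, which overlaps the end of Mest, was at 85.8 CPM in that cortex library against 47.5 to 58.3 CPM in the other 5, and Klf14, an imprinted gene expressed from the maternal chromosome, was at 1.71 CPM against 0.332 to 0.398 CPM. Cep41 on the other side was at 7.72 CPM against 6.35 to 7.28 CPM, and Klhdc10 at 266 CPM against 212 to 230 CPM. With this library Mest was not called between the ages (−0.79 ± 0.63, SE, adjusted p = 0.264, edgeR's quasi-likelihood test), and without it Mest was lower at P7 (−0.52 ± 0.1, adjusted p = 0.000375). This gene was picked out with its values known. In a search for genes with at least 10 CPM in 5 libraries of an age and under 2% of their lowest value in the remaining one, the only other gene was Gm23472 in P7 replicate 1 (0.083 CPM, 3 counts, against 11.9 to 40.8 CPM). That mouse held 53.1 CPM of Gm23472 in cerebellum and 54.3 CPM in hippocampus.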
